A study of Mus musculus with 12 samples.

Results

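The amyloid precursor protein and the enzymes that cut it are described here through 9 genes, all of which had a row in the count table. They are App, the precursor itself; Adam10 and Adam17, metalloproteases with α-secretase activity; Bace1 and its relative Bace2; and Psen2, Ncstn, Psenen and Aph1a, subunits of γ-secretase. They were chosen by symbol from the 56980 genes of the table, and all 9 were among the 19152 genes with enough counts to be tested. The data are bulk RNA-seq libraries of hippocampus from 12 male mice, each mouse with an identifier and a library of its own. All mice carried the AppNL-G-F knock-in, an App allele with a humanised and mutated amyloid-β region that leads to amyloid plaques. In 6 of them Trem2, the lipid receptor through which microglia react to plaques, was also knocked out; the labels do not say how. The 4 groups of 3 mice were AppNL-G-F at 3 months and at 9 months of age (App-KI) and AppNL-G-F with Trem2 KO at 3 months and at 9 months (Trem2-KO). Every group carries the knock-in, so age and amyloid load cannot be told apart, and the App level is that of mice with this allele, with no split between knock-in and wild-type sequence.

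App is cut along competing routes. An α-secretase cuts inside the amyloid-β sequence and so prevents its release, whereas β-secretase cuts at its start and leaves a membrane stub from which γ-secretase then frees amyloid-β. γ-Secretase is a complex of a catalytic presenilin with nicastrin (Ncstn), PEN-2 (Psenen) and APH-1, and in the brain the precursor and these proteases are made in neurons and in glia.

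Total counts ran from 14627892 to 24594655 per library. Levels are CPM, counts scaled to a common library size, on totals adjusted by the trimmed mean of M-values; 3 counts, the most that a 0 could hide, are worth 0.122 to 0.206 CPM. Trem2 stood at 8.05 to 10.4 CPM in App-KI mice aged 3 months and at 1.85 to 2.17 CPM in their Trem2-KO counterparts, then at 49.8 to 55.6 CPM and 3.62 to 3.83 CPM at 9 months, lower in every knockout library of each age. The hippocampal markers Prox1, C1ql2 and Dsp of dentate granule cells summed to 144 to 214 CPM, and none of the 14 lists of cell type markers had a gene at 0 in any library. The 8 choroid plexus and ependymal markers varied within groups, from 54.0 to 3069 CPM in sum. The 6 meningeal and perivascular fibroblast markers summed to 181 to 264 CPM in Trem2-KO at 9 months and to 125 to 181 CPM in the other 9 libraries. Such values in bulk tissue do not tell fewer cells of a type from less RNA per cell.

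Genotype and age left most of the 9 genes within the spread of their libraries. Adam17 was the member called within a single genotype: it was higher at 9 than at 3 months in App-KI. Averaged over the genotypes, Adam17 rose with age and Psenen fell, and no member was called for genotype or for the interaction of age and genotype. Calls are those of the quasi-likelihood test of edgeR with a Benjamini-Hochberg adjusted p under 0.05, taken over the 19152 genes tested.

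Read against all genes tested, these counts were close to the background. For Trem2-KO against App-KI, 0 of 9 members were called at 3 months, beside 0.59% of all genes; 1 member had an unadjusted p under 0.05 and DESeq2 called 0. At 9 months 0 were called beside 2.08% of all genes, with 1 by unadjusted p under 0.05 and 0 by DESeq2. For the genotypes averaged over ages, 0 were called beside 4.14%, with 3 by unadjusted p under 0.05 and 0 by DESeq2. For age in App-KI, 1 member was called beside 6.66% of all genes. For age in Trem2-KO, 0 were called beside 8.7%, with 2 by unadjusted p under 0.05 and 0 by DESeq2. For age averaged over genotypes, 2 were called beside 17% of all genes. The interaction gave 0 calls beside 0.266%, with 0 by unadjusted p under 0.05 and 0 by DESeq2. Of all genes tested, 11.2% had an unadjusted p under 0.05 for genotype at 3 months, 13.6% at 9 months and 18% averaged over ages. That share was 22.7% for age in Trem2-KO and 6.04% for the interaction.

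The members' log2 fold changes were small. Their medians lay at -0.0013 for genotype at 3 months, -0.01 for genotype at 9 months, 0.05 for age in App-KI and -0.0031 for age in Trem2-KO, and the medians over all genes tested lay within 0.01 of 0 in these comparisons. The median size of a member's change was 0.05 for genotype at 3 months and 0.03 at 9 months, against 0.11 and 0.12 for all genes. The members were also measured more precisely than most genes: for age in App-KI their median standard error was 0.08, against 0.12 for all genes tested.

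**Figure D1:**
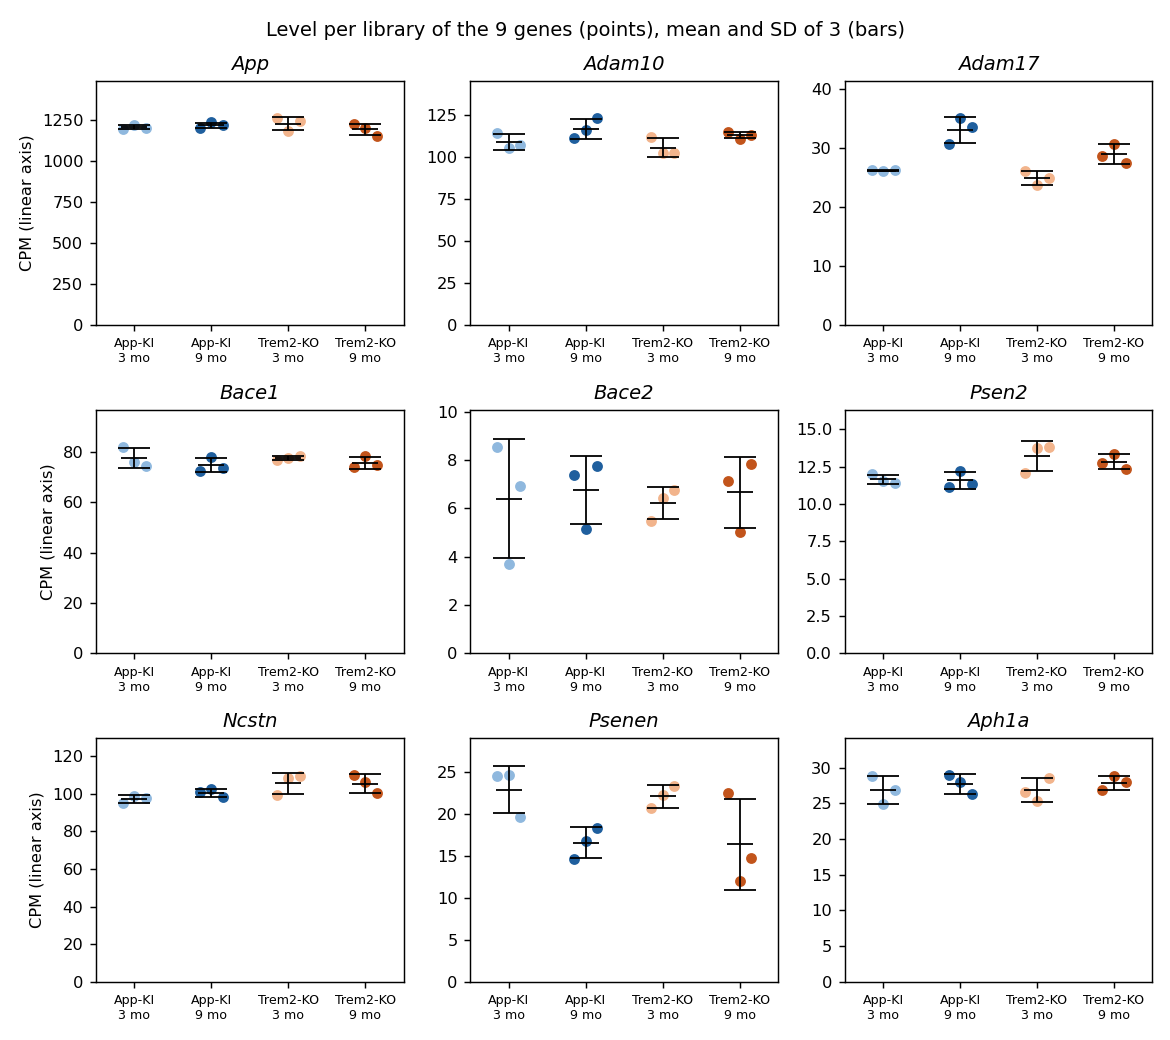
Level of each of the 9 genes in CPM (linear axis from 0), with 1 point per library and the mean and SD of the 3 libraries of each group. Every Adam17 point of 9 months lies above those of 3 months, and Psenen at 9 months in Trem2-KO spreads from 12.03 to 22.5 CPM.

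The 9 genes spanned a wide range of levels. Divided by the median length of each gene's annotated coding transcripts, the mean over 12 libraries was 375 CPM per kb for App, 35.2 for Ncstn, 29.2 for Psenen, 24.2 for Adam10, 15.1 for Bace1, 12.3 for Aph1a, 6.37 for Adam17, 6.17 for Psen2 and 0.852 for Bace2. App was first and Bace2 last in every library. In CPM, App ranked 59 of the 19152 genes, above 99.7% of them. Per kb of transcript, Ncstn lay above Adam10 in all 12 libraries, whereas in mean CPM Adam10 was the higher, at 111 against 102. Psenen changed place with each of them between libraries, and so did Adam17 with Psen2. Psenen lay above Adam10 in every library of 3 months and in only some of 9 months. Adam17 lay above Psen2 in every App-KI library of 9 months, at 6.91 to 7.89 against 5.57 to 6.12 CPM per kb. It lay below Psen2 in every Trem2-KO library of 3 months, at 5.33 to 5.89 against 6.04 to 6.93. In the remaining groups both orders of Adam17 and Psen2 occurred. Dividing by the length of all annotated exons instead put Adam10 above Psenen and left the order of the others as it was.

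**Figure D2:**
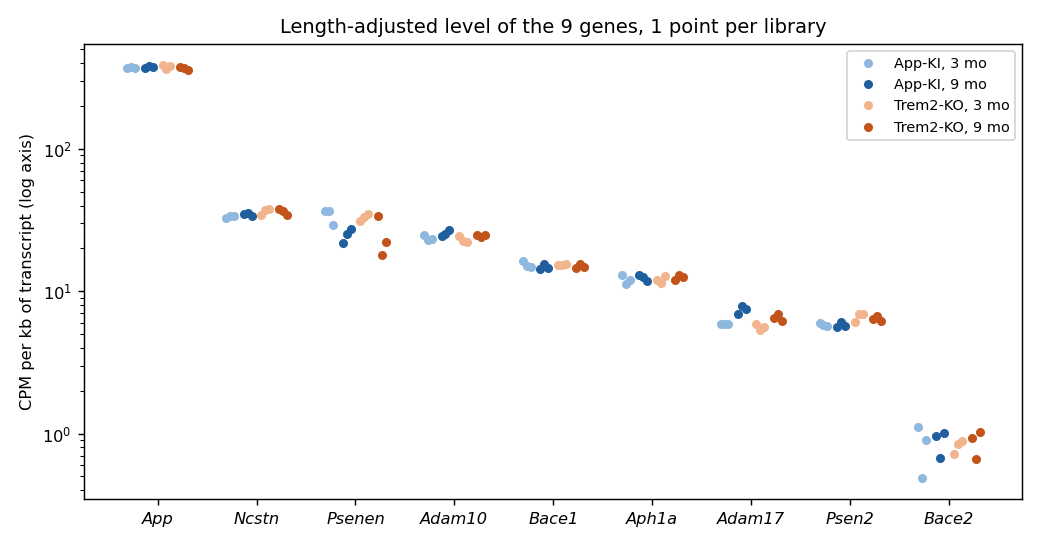
Level of each gene in CPM per kb of transcript (log axis), with 1 point per library coloured by group. App stands at 358 to 391 CPM per kb in all libraries, while the points of Psenen overlap those of Ncstn and those of Adam10, and the points of Adam17 overlap those of Psen2.

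App, the source of amyloid-β, was at 1193, 1217 and 1197 CPM in App-KI at 3 months and at 1201, 1232 and 1214 CPM at 9 months. In Trem2-KO it was at 1258, 1178 and 1240 CPM at 3 months and at 1220, 1197 and 1152 CPM at 9 months. All 4 groups overlapped. Averaged over ages, Trem2-KO differed from App-KI by -0.11% (95% interval -4.66% to 4.65%; adjusted p = 0.987). Averaged over genotypes, 9 months differed from 3 months by -0.94% (95% interval -5.44% to 3.78%; adjusted p = 0.828). App had the tightest libraries of the 9 genes, with a coefficient of variation within groups of 2.39%.

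Adam10, the main constitutive α-secretase of neurons, was at 114, 106 and 107 CPM in App-KI at 3 months and at 111, 116 and 123 CPM at 9 months. In Trem2-KO it was at 112, 103 and 102 CPM at 3 months and at 115, 111 and 113 CPM at 9 months. The ages overlapped in both genotypes. The log2 difference between 9 and 3 months was 0.10 ± 0.05 (SE) in each genotype, with adjusted p = 0.369 in App-KI and 0.293 in Trem2-KO. Averaged over genotypes it was 7.18% (95% interval 1.40% to 13.3%; adjusted p = 0.0828), short of the threshold. Without the first Trem2-KO library of 3 months Adam10 passed it, at 0.12 and adjusted p = 0.0389, and over all alternatives that p ran from 0.0389 to 0.66. Genotype differed by -0.05 ± 0.05 at 3 months (adjusted p = 0.835) and by -0.05 ± 0.05 at 9 months (adjusted p = 0.753).

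Adam17, or TACE, is the protease that sheds tumour necrosis factor and can also make the α-cut in App. It was at 26.2, 26.1 and 26.2 CPM in App-KI at 3 months and at 30.7, 35.1 and 33.5 CPM at 9 months. In Trem2-KO it was at 26.2, 23.7 and 24.9 CPM at 3 months and at 28.6, 30.8 and 27.5 CPM at 9 months. Every library of 9 months lay above every library of 3 months, within each genotype and over both. In App-KI Adam17 rose with age by 0.34 ± 0.08 on the log2 scale (SE; 26.4%, 95% interval 13.2% to 41.1%; adjusted p = 0.00779), and DESeq2 called it too. The difference in Trem2-KO was 0.22 ± 0.08 (16.4%, 95% interval 4.18% to 30%; adjusted p = 0.0815), which did not pass. The interaction, the test of whether these age differences differ, gave -0.12 ± 0.11 (adjusted p = 0.99). Averaged over genotypes Adam17 rose by 0.28 ± 0.05 (21.3%, 95% interval 12.2% to 31.1%; adjusted p = 0.00109). At 9 months Trem2-KO differed from App-KI by -0.19 ± 0.08 (adjusted p = 0.245), with overlapping libraries. The App-KI call ended without the second App-KI library of 9 months, where the difference was 0.29 with adjusted p = 0.0643. It held when any other library was left out. With the meningeal fibroblast score as a covariate, the call averaged over genotypes ended as well (0.28, adjusted p = 0.0561). The SE of that difference went from 0.05 to 0.08. This score was highest in the Trem2-KO libraries of 9 months, so it overlaps with that group wherever it is used here. A call lost with it does not tell the score from the group.

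Summed levels of microglial and of astrocyte markers moved with Adam17. The 6 microglial markers Csf1r, Cx3cr1, C1qa, C1qb, P2ry12 and Ctss summed to 348 to 367 CPM in App-KI and 334 to 348 CPM in Trem2-KO at the age of 3 months, and to 893 to 964 CPM and 528 to 569 CPM at 9 months. All 6 were called higher with age in App-KI and 5 of 6 in Trem2-KO, and none was at 0. The 4 groups thus came in the same order of mean for these markers and for Adam17. The 6 astrocyte markers summed to 2818 to 3156 CPM at 3 months and 3954 to 4874 CPM at 9 months. Of these, 2 of 6 were called higher with age in App-KI and 3 of 6 in Trem2-KO. Their median log2 difference with age was 0.12 in App-KI and 0.17 in Trem2-KO, against 1.37 and 0.72 for the microglial markers. The 6 oligodendrocyte markers had a median log2 difference of -0.21 with age in App-KI and -0.35 in Trem2-KO, with none called higher. The part of microglia or astrocytes in the Adam17 result was not tested. The tested genes most like Adam17, by Pearson r of log2 CPM over the 12 libraries, were Entpd1 (0.97), Clec5a (0.97) and Clec7a (0.96); the 12 points share the 4 groups, so the r describes likeness only. Adam17 also shares 311 exon bases with Iah1 on the opposite strand; Iah1 was at 7.86 to 9.27 CPM in group means and differed with age in App-KI by -0.23 ± 0.15 (adjusted p = 0.495), and the sources used here do not say whether the counting used strand.

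**Figure D3:**
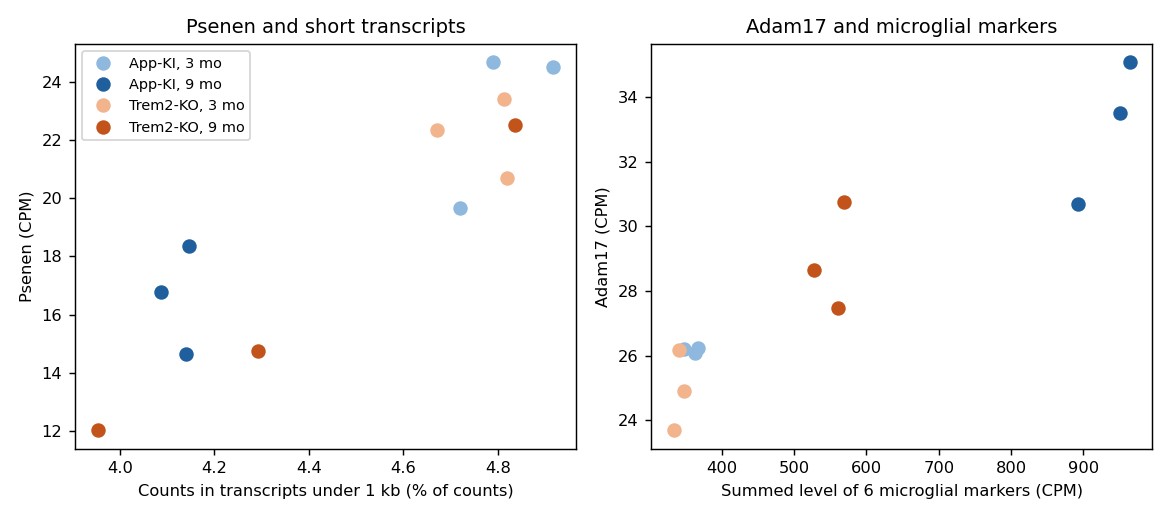
Left, Psenen in CPM against the percentage of a library's counts in genes with transcripts under 1000 bases; right, Adam17 in CPM against the summed level of 6 microglial markers in CPM; 1 point per library, coloured by group. The first Trem2-KO library of 9 months sits with the libraries of 3 months on the left, at 22.5 CPM and 4.84%, and the App-KI libraries of 9 months lie to the upper right on the right.

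The sequence before the start of Adam17 is shown because this gene carries the age result. It is the 250 bases before the RefSeq start, chr12:21373633-21373882 of GRCm38.p6 on the minus strand, 5′ to 3′, with the 1 GC box in capitals.
Adam17: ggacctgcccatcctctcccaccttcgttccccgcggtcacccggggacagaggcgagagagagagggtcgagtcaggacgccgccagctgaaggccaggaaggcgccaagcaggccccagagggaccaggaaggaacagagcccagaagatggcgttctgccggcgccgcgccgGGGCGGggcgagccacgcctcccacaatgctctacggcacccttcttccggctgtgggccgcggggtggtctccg
Windows were searched on both strands for the GC box GGGCGG, the CCAAT box CCAAT and the TATA box TATAAA. The Adam17 window held 1 GC box and no match to the others. Over 32851 such windows of mouse genes, 32.7% held a GC box, 33.8% a CCAAT box and 12.4% a TATA box, so a GC box is common among them.

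Bace1, the β-secretase of the brain, was at 82.0, 76.1 and 74.5 CPM in App-KI at 3 months and at 72.5, 77.8 and 73.7 CPM at 9 months. In Trem2-KO it was at 76.7, 77.6 and 78.4 CPM at 3 months and at 74.0, 78.3 and 74.6 CPM at 9 months. All groups overlapped. Averaged over ages, Trem2-KO differed from App-KI by 0.61% (95% interval -4.89% to 6.42%; adjusted p = 0.935), and averaged over genotypes the ages differed by -3.12% (95% interval -8.41% to 2.47%; adjusted p = 0.485). Bace1 shares 975 exon bases with Rnf214 on the opposite strand, more than any other member shares with a neighbour, and Rnf214 was at 56.9 ± 2.4 CPM (SD, n = 3) in Trem2-KO at 9 months.

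Bace2, a related protease that is scarce in neurons, was the lowest and least precisely measured member. It was at 3.71 to 8.56 CPM in App-KI and 5.48 to 6.75 CPM in Trem2-KO at the age of 3 months, and at 5.15 to 7.74 CPM and 5.03 to 7.85 CPM at 9 months, on 65 to 210 counts per library. The groups overlapped throughout. Its coefficient of variation within groups was 25.1%, where counting alone gives 9.11%. The 95% interval of the genotype difference averaged over ages ran from -26.3% to 29.5%, so a change of that size was not detectable here. The α- to β-secretase ratio of levels, Adam10 CPM over Bace1 CPM, was 1.41 ± 0.03 (SD, n = 3) in App-KI at 3 months and 1.57 ± 0.09 at 9 months. In Trem2-KO it was 1.363 ± 0.08 and 1.496 ± 0.07. The App-KI libraries did not overlap between ages, at 1.39 to 1.44 against 1.496 to 1.67, and the Trem2-KO libraries did, at 1.31 to 1.46 against 1.42 to 1.55; these ratios were not tested.

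Among the γ-secretase subunits within the 9 genes, the differences with genotype were small and none passed. Ncstn, the substrate-binding scaffold, was at 94.8, 98.8 and 97.8 CPM in App-KI and at 99.2, 108 and 109 CPM in Trem2-KO of the same age, 3 months. At 9 months it was at 101, 103 and 98.4 CPM in App-KI and at 110, 106 and 100.2 CPM in Trem2-KO. Every Trem2-KO library lay above every App-KI library at 3 months, and the genotypes overlapped at 9 months. The difference averaged over ages was 6.78% (95% interval 1.12% to 12.8%; adjusted p = 0.176).

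Psen2, a presenilin and so a catalytic subunit, was at 11.99, 11.5 and 11.4 CPM in App-KI and at 12.1, 13.8 and 13.8 CPM in Trem2-KO of the same age, 3 months. At 9 months it was at 11.1, 12.2 and 11.3 CPM in App-KI and at 12.8, 13.4 and 12.4 CPM in Trem2-KO. The Trem2-KO libraries lay above the App-KI libraries of the same age at both ages. The log2 differences were 0.19 ± 0.10 at 3 months (adjusted p = 0.524) and 0.15 ± 0.10 at 9 months (adjusted p = 0.568), and averaged over ages the difference was 12.3% (95% interval 1.26% to 24.5%; adjusted p = 0.214). With age Psen2 differed by -1.94% (95% interval -11.6% to 8.76%; adjusted p = 0.842). Aph1a, a scaffold subunit, stayed between 24.9 and 29.0 CPM in all 12 libraries. Its groups overlapped in every comparison, and the genotype difference averaged over ages had a 95% interval of -7.57% to 8.68% (adjusted p = 0.986).

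Psenen encodes PEN-2, the small subunit that completes the complex and allows its activation. It was at 24.5, 24.7 and 19.7 CPM in App-KI at 3 months and at 14.7, 16.8 and 18.4 CPM at 9 months. In Trem2-KO it was at 20.7, 22.3 and 23.4 CPM at 3 months and at 22.5, 12.03 and 14.7 CPM at 9 months. In App-KI every library of 9 months lay below every library of 3 months, whereas in Trem2-KO the first library of 9 months lay among those of 3 months. Averaged over genotypes Psenen fell with age by 0.45 ± 0.14 on the log2 scale (SE; -26.7%, 95% interval -40.4% to -9.90%; adjusted p = 0.0431), and DESeq2 called it too. Within a genotype it did not pass: -0.47 ± 0.19 in App-KI (adjusted p = 0.228) and -0.43 ± 0.19 in Trem2-KO (adjusted p = 0.211). With genotype it differed by -0.05 ± 0.19 at 3 months and -0.01 ± 0.20 at 9 months. The age call was lost in 9 of the 12 fits that left out a library, with adjusted p up to 0.0989, and with the choroid plexus score (0.051) or the meningeal fibroblast score (0.135) as a covariate. Without the first Trem2-KO library of 9 months the age difference of Psenen was instead -0.60 averaged over genotypes (adjusted p = 1.76e-05), -0.47 in App-KI (adjusted p = 0.00704) and -0.73 in Trem2-KO (adjusted p = 0.000618).

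A shift of short transcripts with age moved with Psenen, whose median transcript of 669 bases was the shortest of the 9. This measure and its limit of 1000 bases were chosen after the values were seen. Genes with transcripts under 1000 bases held 4.72% to 4.92% of counts in App-KI and 4.67% to 4.82% in Trem2-KO at 3 months, and 4.09% to 4.15% in App-KI at 9 months. In Trem2-KO at 9 months they held 4.84%, 3.95% and 4.29%, in the same order as Psenen. Within each of the other groups, where the share varied less, its order differed from that of Psenen. Of the 14880 tested genes with a length, 1113 were under this limit, and their median log2 difference with age averaged over genotypes was -0.19, against 0.02 for the others; 417 of them were called lower. With the share of short transcripts as a covariate, the age difference of Psenen averaged over genotypes was 0.07 ± 0.12 (adjusted p = 0.826), and that of Adam17 was 0.24 ± 0.09 (adjusted p = 0.178) or, in App-KI, 0.29 ± 0.12 (adjusted p = 0.383). No member was called in any of the 7 comparisons in that fit. The share falls with age in 5 of the 6 libraries of 9 months, so the age term and this covariate overlap; the SE of the Adam17 difference averaged over genotypes went from 0.05 to 0.09. The tested genes most like Psenen over the 12 libraries were Edf1, Ciao2b and Tmem160, each at a Pearson r of 0.96, with transcripts of 722, 778.5 and 815 bases.

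The sequences before the RefSeq starts of Psenen are shown because they lie over neighbouring genes on the opposite strand, which bears on how reads there are counted. Both windows of 250 bases are from GRCm38.p6 on the minus strand, 5′ to 3′, chr7:30563628-30563877 and chr7:30563205-30563454, with the 1 CCAAT box of the first in capitals as it reads on this strand.
Psenen, upstream start: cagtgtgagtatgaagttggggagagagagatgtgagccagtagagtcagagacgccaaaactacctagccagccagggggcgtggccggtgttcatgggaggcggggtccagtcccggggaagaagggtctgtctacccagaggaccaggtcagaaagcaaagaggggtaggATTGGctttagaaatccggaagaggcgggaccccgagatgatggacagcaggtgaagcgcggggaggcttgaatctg
Psenen, downstream start: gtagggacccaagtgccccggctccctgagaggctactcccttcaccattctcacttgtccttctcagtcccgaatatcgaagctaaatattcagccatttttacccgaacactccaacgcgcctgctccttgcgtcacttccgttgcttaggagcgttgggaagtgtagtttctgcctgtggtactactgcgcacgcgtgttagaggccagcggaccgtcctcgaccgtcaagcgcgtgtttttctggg
Neither window held a GC box or a TATA box, and the downstream window held no CCAAT box. Both overlap the annotated spans of U2af1l4 and Gm49396, whose exons share 119 and 111 bases with those of Psenen. U2af1l4 stayed at or below 1.01 CPM in all libraries. Gm49396 differed with age by 0.02 ± 0.10 in App-KI (adjusted p = 0.95) and 0.20 ± 0.11 in Trem2-KO (adjusted p = 0.274), and was called in neither.

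**Figure D4:**
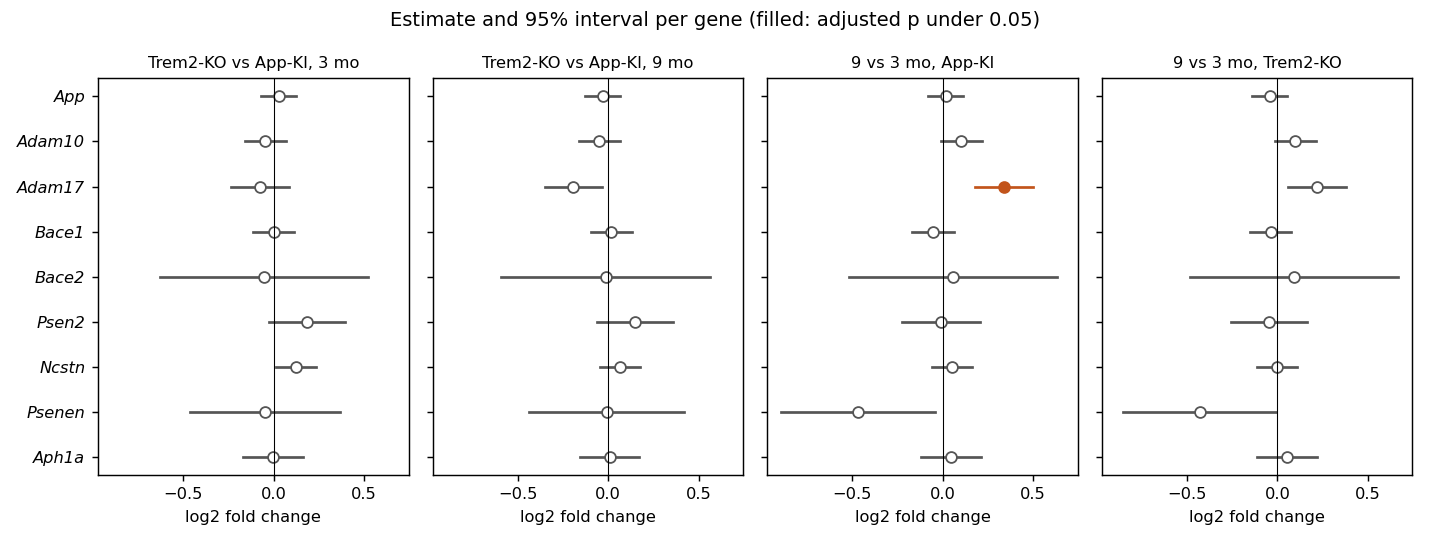
Log2 fold change of each gene with its 95% interval in 4 comparisons: Trem2-KO against App-KI for each age, and 9 against 3 months for each genotype; a filled point marks an adjusted p under 0.05. The 1 filled point is Adam17 with age in App-KI, at 0.34, and the intervals of Bace2 and Psenen are the widest.

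The genes whose pattern over the 12 libraries was most like that of App were all scarce: Gm9968 (r = 0.85), Rps6-ps4 (r = 0.85) and Spc25 (r = 0.83), at 2.66, 2.40 and 1.13 CPM on average. App itself varied so little that such a likeness describes mostly the spread between libraries of a group.

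Around the 9 genes, 74 others were listed by their roles, of which 71 were tested. For genotype at 3 months 0 were called by edgeR's test and 0 by DESeq2, and 8 had an unadjusted p under 0.05, beside 11.2% of all genes. At 9 months 1 was called, Ctsb, which is 1.41% of those tested beside 2.08% of all genes. There 13 had an unadjusted p under 0.05, beside 13.6% of all genes. DESeq2 called 4: Ctsb, Ide, Snx27 and Timp3. Averaged over ages 3 were called for genotype, 4.23% beside 4.14% of all genes: Vps29 was higher in Trem2-KO, and Snx27 and Ctsb were lower. In that comparison 16 had an unadjusted p under 0.05, beside 18% of all genes, and DESeq2 called 5. The interaction gave 0 calls, with 2 by DESeq2 and 5 by unadjusted p under 0.05, beside 6.04% of all genes. For age 4 were called in App-KI, 5.63% of those tested beside 6.66% of all genes, and 10 in Trem2-KO, 14.1% beside 8.7%. Averaged over genotypes 21 were called for age, 29.6% beside 17% of all genes. Leaving out a library gave 3 to 6, 5 to 12 and 12 to 20 calls for age in these comparisons. With the meningeal fibroblast score as a covariate 4, 0 and 6 were called, and with the share of short transcripts 3, 8 and 7, Ctsb and Cx3cl1 among them in each of the last 3 counts. The lists were drawn up with earlier results of these data known, so these counts are a description.

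Of the APP family and its cytoplasmic adaptors, 9 genes, none was called in any of the 7 comparisons by edgeR's test. DESeq2 called Apba3 alone, for genotype averaged over ages, as did the fit with the choroid plexus score as a covariate. An unadjusted p under 0.05 was held by 2 for genotype at each age, beside 11.2% and 13.6% of all genes. It was held by 2 for genotype averaged over ages, beside 18%, and by 3 for age in Trem2-KO, beside 22.7%. Age averaged over genotypes gave 3, beside 28.6%. Age in App-KI and the interaction gave 0, beside 17.1% and 6.04%. Aplp1 and Aplp2, the paralogs of App, were at 1466 ± 36 and 785 ± 10 CPM (SD, n = 3) in App-KI at 3 months and at 1503 ± 92 and 814 ± 32 CPM in Trem2-KO at 9 months. Apba3, an adaptor of the X11 family, had the smallest p with genotype at 9 months, at -0.22 ± 0.09 (adjusted p = 0.258).

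Of the 15 sorting and trafficking genes, Vps29, a retromer subunit, fell with age in App-KI from 162 ± 3.5 to 134 ± 9.8 CPM (log2 difference -0.27 ± 0.05, adjusted p = 0.00271) and in Trem2-KO from 186 ± 5.8 to 154 ± 6.8 CPM (-0.28 ± 0.05, adjusted p = 0.00282). Its libraries did not overlap between ages in either genotype, and it was called for age in all 12 fits that left out a library. Its transcript of 867 bases is among the short ones described for Psenen. Vps35 and Vps26a, the other retromer core subunits listed, were not called for age in either genotype. With the share of short transcripts as a covariate Vps29 was called for age in Trem2-KO and not in App-KI. Averaged over ages Vps29 was higher in Trem2-KO by 0.19 ± 0.04 (adjusted p = 0.0048), and Snx27, a sorting nexin that works with retromer, differed by -0.17 ± 0.03 (adjusted p = 0.00556). For both genes the genotypes did not overlap at either age. The log2 differences were 0.20 and 0.19 for Vps29 and -0.18 and -0.17 for Snx27. None of these passed within an age by edgeR's test on the filtered genes. At 9 months DESeq2 called Snx27, and the fit without the filter called Vps29. Both averaged calls held in all 12 fits that left out a library and with the share of short transcripts, and both ended with the meningeal fibroblast score as a covariate. Averaged over genotypes, Sorcs3 fell by 0.16 ± 0.05 and Snx27 rose by 0.10 ± 0.03 with age, calls that held in 10 and 2 of the 12 fits that left out a library.

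Among 18 other subunits, maturation factors and inhibitors, 6 rose with age averaged over genotypes and 0 fell, where 17% of all genes were called in either direction. With the share of short transcripts as a covariate Timp3 alone of the 6 was still called, and with the meningeal fibroblast score Furin, Rhbdf1 and Rhbdf2 were. Rhbdf1 and Rhbdf2, the iRhom proteins that carry Adam17 to the cell surface, were among them. Rhbdf1 was at 14.8 ± 0.74 and 20.6 ± 0.71 CPM in App-KI at 3 and 9 months (0.47 ± 0.09, adjusted p = 0.00147) and at 15.1 ± 0.73 and 17.6 ± 0.48 CPM in Trem2-KO (0.22 ± 0.09, adjusted p = 0.128). Its ages did not overlap in either genotype, and the App-KI call ended with the share of short transcripts as a covariate. Rhbdf2 rose by 0.72 ± 0.18 averaged over genotypes (adjusted p = 0.00727) at a low level. Timp3, an inhibitor of Adam17 and Adam10, was at 129 ± 10 and 201 ± 26 CPM in Trem2-KO (0.64 ± 0.09, adjusted p = 0.00115) and at 139 ± 12 and 157 ± 8.5 CPM in App-KI (0.17 ± 0.09, adjusted p = 0.383). The interaction for Timp3 was 0.46 ± 0.13 (adjusted p = 0.355), which did not pass in edgeR's test; DESeq2 called it, and so did the fit without the filter. At 9 months Timp3 differed between Trem2-KO and App-KI by 0.36 ± 0.09 (adjusted p = 0.071), with every Trem2-KO library above. That difference was called by DESeq2, without the filter, with the choroid plexus score and in 3 of the 12 fits that left out a library. With the meningeal fibroblast score as a covariate, neither that difference nor the age difference of Timp3 in Trem2-KO was called. Tspan14, a tetraspanin partner of Adam10, and Furin, which removes the propeptides of these proteases, rose by 0.14 ± 0.05 and 0.29 ± 0.09, and Erlin2 by 0.16 ± 0.04, averaged over genotypes. Of these, Erlin2 was called in all 12 fits that left out a library, Furin in 4 and Tspan14 in 3. Aph1b, an APH-1 subunit of γ-secretase, differed with genotype by -0.21 ± 0.08 at 3 months (adjusted p = 0.32) and -0.20 ± 0.08 at 9 months (adjusted p = 0.287). Every Trem2-KO library lay below at 3 months, and the genotypes overlapped at 9 months. Averaged over ages edgeR's test on the filtered genes did not call it. DESeq2 did, as did the fits without the filter, with the share of short transcripts and some that left out a library.

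**Figure D5:**
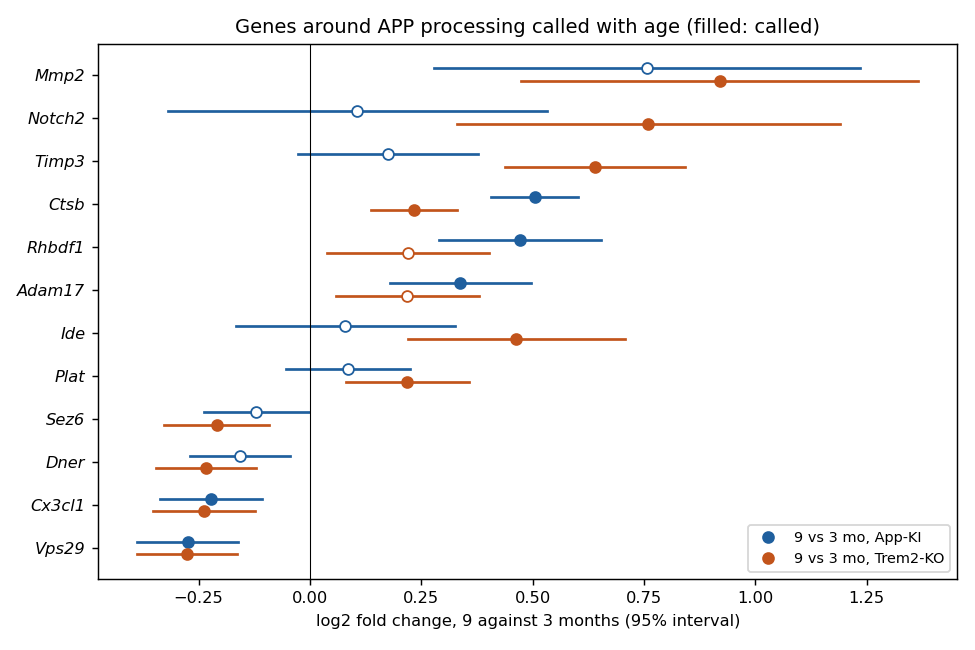
Log2 fold change between 9 and 3 months with its 95% interval in App-KI (blue) and Trem2-KO (orange) for Adam17 and the listed genes called for age in either genotype; a filled point marks an adjusted p under 0.05. Ctsb, Cx3cl1 and Vps29 are filled in both genotypes.

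Of 10 amyloid-β degrading enzymes, 5 rose with age averaged over genotypes and 0 fell, again beside 17% of all genes called. Of these calls, those of Ctsb and Mmp2 held in all 12 fits that left out a library, that of Plat in 6, that of Mmp14 in 3 and that of Ide in 2. Ctsb, the lysosomal protease cathepsin B, was at 764 ± 3.6 and 1084 ± 7.4 CPM in App-KI at 3 and 9 months (0.50 ± 0.05, adjusted p = 1.94e-07) and at 768 ± 16 and 903 ± 43 CPM in Trem2-KO (0.23 ± 0.05, adjusted p = 0.00314). At 9 months it was lower in Trem2-KO by -0.26 ± 0.05 (adjusted p = 0.00249), with no overlap, and it was called in all 12 fits that left out a library in each of these comparisons. Its genotype call averaged over ages (-0.13 ± 0.03, adjusted p = 0.0296) held in 3 of the 12. With the meningeal fibroblast score as a covariate the genotype call at 9 months and the age call in Trem2-KO ended, and the age call in App-KI held. The interaction for Ctsb was -0.27 ± 0.07 (adjusted p = 0.129), which did not pass in edgeR's test. DESeq2 called it. The microglial markers moved in the same directions, and their part in this was not tested. Ide, the insulin-degrading enzyme, and Mmp2, a gelatinase, rose in Trem2-KO by 0.46 ± 0.11 (adjusted p = 0.0244) and 0.92 ± 0.21 (adjusted p = 0.00961), and Plat, tissue plasminogen activator, by 0.22 ± 0.07 (adjusted p = 0.045). The ages overlapped for Ide in Trem2-KO. Between the genotypes at 9 months Ide differed by 0.39 ± 0.11 (adjusted p = 0.111), with every Trem2-KO library above every App-KI library. DESeq2 called that difference, as did the fit without the filter and that without the second Trem2-KO library of 9 months. With the meningeal fibroblast score it was not called. In App-KI Mmp2 differed with age by 0.76 ± 0.23 (adjusted p = 0.0513), with every library of 9 months above those of 3 months, and its interaction was 0.16 ± 0.31 (adjusted p = 0.994). The meningeal fibroblast score, the mean log2 CPM of those 6 markers, was highest in the Trem2-KO libraries of 9 months, at 4.28 to 4.64 against 3.27 to 3.91 in the other libraries. It thus overlaps with that group, and calls lost with it do not tell the score from the group. With the meningeal score as a covariate none of these 4 enzymes was called in Trem2-KO. Leaving out a library, Mmp2 was called in Trem2-KO in 10 of the 12 fits, Ide in 8 and Plat in 2. Mmp14 rose by 0.26 ± 0.08 averaged over genotypes.

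Of 19 substrates shared with these secretases, 3 rose and 4 fell with age averaged over genotypes, beside 17% of all genes called. The receptors Notch1, Notch2 and Notch3 rose by 0.21 ± 0.07, 0.43 ± 0.14 and 0.29 ± 0.08. Of these, Notch3 was called in all 12 fits that left out a library, Notch1 in 5 and Notch2 in 2. With the share of short transcripts as a covariate Notch2 alone of the 3 was still called, and with the meningeal fibroblast score none was. Cx3cl1, the neuronal chemokine fractalkine shed by Adam10 and Adam17, fell in App-KI from 882 ± 22 to 756 ± 7.7 CPM (-0.22 ± 0.05, adjusted p = 0.0154) and in Trem2-KO from 830 ± 63 to 703 ± 35 CPM (-0.24 ± 0.05, adjusted p = 0.0093). It was called in 10 of the 12 fits that left out a library in each genotype, and in all 12 averaged over genotypes. Its median annotated transcript of 470 bases also puts it among the short ones. The neuronal Bace1 substrates Sez6 and Chl1 fell by 0.16 ± 0.04 and 0.21 ± 0.06 averaged over genotypes, and Dner, a Notch ligand of neurons, by 0.20 ± 0.04. These averaged calls held in all 12 fits that left out a library for Sez6 and Dner and in 7 for Chl1. All 3 ended with the share of short transcripts as a covariate and with the meningeal fibroblast score, although their median transcripts are 4101.5, 4390 and 3632 bases long. The 4 markers of CA1 and CA3 neurons summed to 447 to 468 CPM at 3 months and 411 to 422 CPM at 9 months in App-KI, and to 436 to 481 CPM and 371 to 405 CPM in Trem2-KO. Of these markers 2 of 4 were called lower with age averaged over genotypes. In that comparison the 7 general neuronal markers had a median log2 difference of -0.07, with 1 called lower. The 3 dentate granule markers had a median of 0.18, with 0 called. The part of these neurons in the falls of Sez6, Chl1 and Dner was not tested.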

How the data were processed

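Bulk RNA-seq counts from the hippocampus of 12 male mice were used. Libraries came from column-purified total RNA and the SMART-Seq mRNA LP kit, per the labels' protocols. The authors deposited whole-number read counts per gene without normalisation, 1 column per library. Per the submitters' processing notes, STAR 2.7.10a, featureCounts 2.0.3, R 4.2.0, DESeq2 1.36.0 and the build GRCm39 were used, with no roles given. For annotation release, strand setting and handling of multi-mapping reads, the sources used here give nothing.

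Symbols and transcript lengths came from GENCODE M21 (GRCm38), which matched 52125 of 56980 identifiers; the rest held at most 0.215% of a library's counts. Promoter sequences are RefSeq's on GRCm38.p6, where 2 of the members had an entry. Genes were kept by filterByExpr (minimum count 10, minimum total 15), scaled by TMM (trimmed mean of M-values) and tested with edgeR 4.0.16 (robust quasi-likelihood F-test, 1 term per group, 8 residual degrees of freedom, R 4.3.3), adjusting over 19152 genes; SE came from the F statistic. DESeq2 1.42.0 was an alternative. The other alternatives were 2 scalings, no filter, fits on only the groups compared, 2 marker scores as covariates, each library left out and, chosen after seeing the data, the share of short transcripts. The script was tested on simulated data. Members and lists were chosen with earlier results of these data known. Named were all members, each listed gene called (otherwise that with the smallest p), and for App and each called member the 3 genes most like it. A listed marker gene is not reported here and enters no value. Replicates were separate mice. The floor of 3 counts covers counting error only.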

Additional observations from a re-analysis of the deposited data

How the results depend on the processing

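For age in App-KI, 2 members were called without the filter and 2 in the fit on only the groups compared, Psenen being the second in both, and 0 with the share of short transcripts as a covariate; leaving out a library gave 0 to 2. For age in Trem2-KO, 1 was called without the filter, and 0 to 1 on leaving out a library. Averaged over genotypes, 1 was called for age with the choroid plexus score, 0 with the meningeal fibroblast score and 0 with the share of short transcripts, and 1 to 2 on leaving out a library. In the other 4 comparisons 0 members were called under every alternative run, DESeq2 included. The age difference of Psenen averaged over genotypes reversed to 0.074 with the share of short transcripts; the cause was not tested. Of the members' log2 fold changes in fits that left out a library, 666 kept direction and side of the threshold, 77 that were not called changed sign, 10 lost and 3 gained a call; in the other fits these were 429, 39, 5 and 3, beside the reversal of Psenen. The meningeal fibroblast score overlaps with the Trem2-KO group of 9 months, so calls lost with it do not tell the score from the group. With the meningeal fibroblast score the number of all genes called was 6 for genotype at 9 months, 31 for Trem2-KO age, 73 for genotype averaged over ages, 0 for the interaction and 1136 for age averaged over genotypes. With the share of short transcripts it was 288 for age in App-KI, 961 for age in Trem2-KO and 761 for age averaged over genotypes. For genotype at 3 months it was 259 by DESeq2, 347 without the filter, 218 on only the groups compared and 188 with the choroid plexus score; for genotype at 9 months 831 without the filter; and for the interaction 103 by DESeq2, 187 without the filter and 85 with the choroid plexus score. Leaving out a library gave 26 to 154 genes for genotype at 3 months (113 with all 12), 175 to 556 at 9 months (398), 458 to 930 averaged over ages (793), 29 to 76 for the interaction (51), 788 to 1523 for age in App-KI (1276), 769 to 1920 in Trem2-KO (1667) and 2495 to 3497 averaged over genotypes (3249), so the percentages of all genes called carry that spread. No paired analysis was possible because the labels give mouse identifiers and no replicate numbers shared between groups. Counting alone gave its largest coefficient of variation among the 9 genes for Bace2, at 9.11%, where the Bace2 libraries varied by 25.1% within groups.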
